A study of Mus musculus with 16 samples.

Results

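The mRNAs of 10 apolipoprotein genes were followed through 16 RNA-seq libraries of mouse liver and liver tumour. The genes are Apoa1, Apoa2, Apoa4, Apoa5, Apob, Apoc1, Apoc2, Apoc3, Apoe and Apom. They were picked by symbol, and each was found as 1 row among the 47069 gene rows of the table. All mice had been given DEN (diethylnitrosamine, a chemical that starts liver tumours), so no library comes from an untreated mouse. Liver tissue came from mice of 5 months on a cornstarch diet (3 libraries) or a high-fructose diet (2 libraries) and from mice of 9 months on cornstarch (3 libraries) or fructose (3 libraries). Tumours were taken at 9 months, from mice on cornstarch (2 libraries) or fructose (3 libraries). Strain and sex, the time of DEN and the length of each diet are not given in the sources used here, nor is it stated whether libraries come from separate mice, so the p-values speak for the spread among these libraries, which may be technical.

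Apolipoproteins are the protein parts of the particles that carry fat and cholesterol in blood. Apob is the scaffold of very low density lipoprotein, Apoe the ligand by which remnant particles are taken up, and Apoa1 and Apoa2 the main proteins of high density lipoprotein, on which Apom carries sphingosine-1-phosphate. Apoc2 is the cofactor that lipoprotein lipase needs to release fatty acids from the particles, Apoc3 and Apoc1 slow their clearance, and Apoa5 speeds it. Apoa4 is best known from the intestine, where it accompanies fat absorption, and in mouse liver it is known to follow fasting and fat load. The liver makes most of the others.

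Of the 10 genes, 7 lie in a pair of clusters (GRCm38, GENCODE M21). On chromosome 9, Apoa1 spans 46228580 to 46230466, Apoc3 46232933 to 46235636, Apoa4 46240696 to 46243459 and Apoa5 46268633 to 46271919. Apoc3 is on the reverse strand and the other members of that cluster are on the forward strand. On chromosome 7, all on the reverse strand, Apoc2 spans 19671579 to 19677941, Apoc1 19689481 to 19692660 and Apoe 19696109 to 19699188. Apoa2 is on chromosome 1 (171225054 to 171226379), Apob on chromosome 12 (7977648 to 8016835) and Apom on chromosome 17 (35128997 to 35132050). Apoa4 and Apoa5 overlap annotated genes on the other strand, and Apoc2 overlaps one on its own strand. The strand setting of the counting is not given, so reads of overlapping genes cannot be told apart. Among these, Gm10680, which overlaps Apoa4, was between 0 and 742 normalised counts.

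Promoter sequences were found in RefSeq (GRCm38.p6) for 8 of the 10 members, all but Apoc1 and Apoc3. The stretches upstream of both the RefSeq and the GENCODE start are shown for 4 members on which the results turn: Apoa4 and Apoa5, neighbours that differed in opposite directions in fructose liver at 5 months, and Apoa1 and Apoc2, which were higher in tumours. They cover chr9:46240594-46240695 for Apoa4, chr9:46268383-46268632 for Apoa5, chr9:46228380-46228579 for Apoa1 and chr7:19677942-19678191, reverse strand, for Apoc2. Capitals mark matches, on either strand, to 3 motifs: CAAAGNNCA, the core of the HNF4 site, TATAAA, the TATA box, and AGGTCA, a site shared by many nuclear receptors.
Apoa4: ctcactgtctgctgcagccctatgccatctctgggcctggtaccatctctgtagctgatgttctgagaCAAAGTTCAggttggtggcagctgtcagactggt
Apoa5: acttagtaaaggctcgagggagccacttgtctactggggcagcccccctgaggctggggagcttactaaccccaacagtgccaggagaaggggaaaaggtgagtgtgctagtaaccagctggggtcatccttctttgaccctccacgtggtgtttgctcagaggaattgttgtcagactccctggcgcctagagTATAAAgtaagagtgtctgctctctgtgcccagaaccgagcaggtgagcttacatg
Apoa1: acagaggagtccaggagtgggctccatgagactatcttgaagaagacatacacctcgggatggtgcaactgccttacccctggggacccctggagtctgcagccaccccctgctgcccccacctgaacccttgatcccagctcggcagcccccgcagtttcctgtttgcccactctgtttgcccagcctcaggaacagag
Apoc2: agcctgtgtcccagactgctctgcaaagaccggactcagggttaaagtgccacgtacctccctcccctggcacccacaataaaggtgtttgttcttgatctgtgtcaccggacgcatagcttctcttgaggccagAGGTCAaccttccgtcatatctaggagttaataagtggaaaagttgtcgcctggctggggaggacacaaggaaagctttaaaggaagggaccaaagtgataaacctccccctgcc
In Apoa4 the capitals are a match to CAAAGNNCA, whose first base lies at -182 from the RefSeq start, and 6.36% of 32851 RefSeq promoter windows of the same length hold that motif. In Apoa5 they are TATAAA at -56, which 13.6% of windows hold, and in Apoc2 AGGTCA at -115, which 16.3% hold. The Apoc2 window holds a further AGGTCA at 43, past the start and outside the stretch shown. No match to the 3 motifs was found in the Apoa1, Apoe or Apom window. These are matches of letters and describe no binding.

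The libraries held 11232461 to 38377674 reads on genes. All 7 hepatocyte markers were above 0 in all 6 groups. Of the 16 libraries, 2 showed Xist and almost no Y-linked signal (fructose replicate 1 and cornstarch replicate 1 of 5 months), and 14 showed Y-linked signal, so results at 5 months are also given without those 2. At 5 months the summed signal of 7 neutrophil markers was 21088 and 23484 in the fructose livers against 7.19 to 84.9 on cornstarch, and all 7 were higher. Also higher at that age were 5 of 8 stellate, 3 of 13 macrophage, 3 of 9 lymphocyte, 2 of 7 endothelial, 2 of 3 tested red cell precursor and 1 of 5 cholangiocyte markers, and none of these lists held a lower one. Of the 7 hepatocyte markers 2 were higher as well, Hpx (hemopexin) 5.25-fold and Trf (transferrin) 3.69-fold. At 9 months 8 of 13 macrophage markers were higher on fructose (summed signal 17619 to 25569 against 3840 to 10088), with 3 of 8 stellate, 1 of 7 neutrophil and 1 of 7 endothelial markers, and none was lower. In tumours against liver, 4 of 8 stellate markers were higher and 1 lower, 1 of 13 macrophage markers was higher and 3 were lower, 1 of 7 endothelial and 1 of 3 red cell precursor markers were lower, Spp1 of the cholangiocyte list was 4.61-fold higher, and no hepatocyte, neutrophil or lymphocyte marker passed. The mitochondrial genome took 2.54% to 4.29% of reads in tumours and 4.68% to 7.73% in liver of 9 months, and 2.93% and 3.49% in fructose liver of 5 months against 5.00% to 5.83% on cornstarch. In bulk tissue, fewer cells of a type and less RNA per cell cannot be told apart, and the part of these shifts in the results below was not tested.

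Together the 10 genes took 2.73% to 6.50% of all gene reads in a library. The share was lowest in the fructose livers of 5 months, at 2.73% and 3.05%, below the 3.58% to 4.02% of cornstarch livers of that age. It was 3.61% to 5.31% in livers of 9 months and 4.43% to 6.50% in tumours, so tumours and older livers overlapped. Apoe was the member with the most reads in liver of both ages, and Apoa1 exceeded it in 2 of the 5 tumours.

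**Figure D1:**
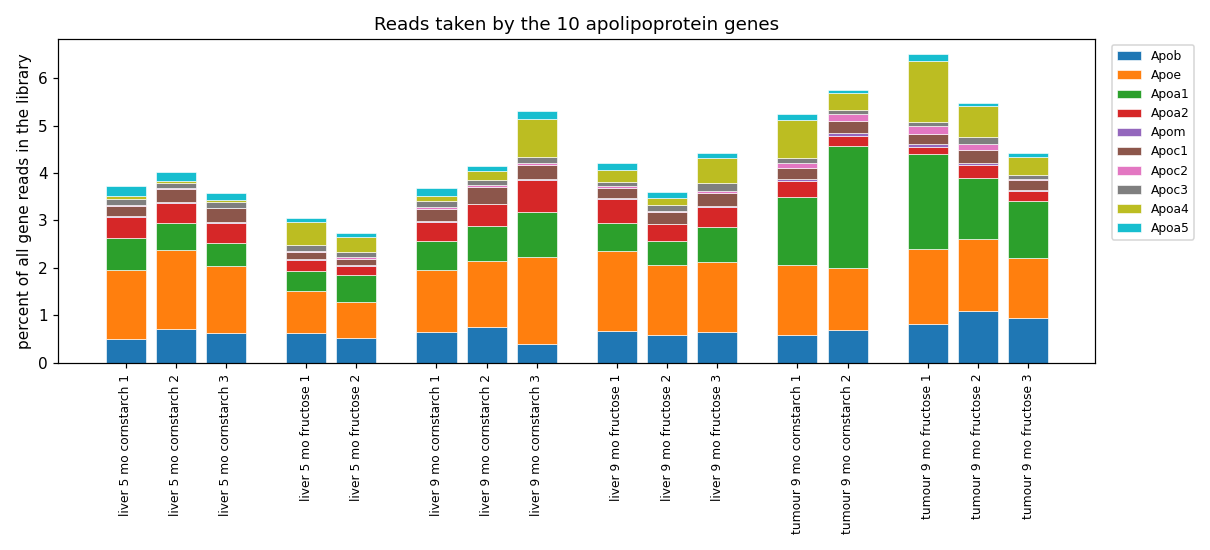
Percent of all gene reads (vertical axis) taken by each of the 10 apolipoprotein genes (stacked colours) in each of the 16 libraries (bars, grouped by tissue, age and diet). The stacks are shortest in the fructose livers of 5 months, at 2.73% and 3.05%, and the Apoa1 layer is widest in the tumours.

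Per kb of exon, the scale on which genes can be compared, the median level over the 16 libraries ran from Apoa2 (121013 normalised counts per kb), Apoe (119881) and Apoa1 (102875) through Apoc1 (59830), Apoa4 (34726) and Apoc3 (20769) to Apob (8498), Apoa5 (8405), Apoc2 (6939) and Apom (3220). The range over libraries of every gene overlapped that of its neighbour in this order. Within libraries, Apoa1 stood above Apoc1 and Apoc3 above Apob in all 16, and Apoc2 above Apom in 15. In the other neighbouring pairs the higher-ranked gene stood above the next in 8 to 12 of the 16 libraries. The members also differed in how steady they were. Between the lowest and the highest library Apoe varied 2.07-fold, Apoc1 2.27-fold, Apoc3 2.43-fold and Apob 2.77-fold. Apom varied 9.30-fold, Apoc2 11.7-fold and Apoa4 31.6-fold. The spread of Apoa4 between libraries of one group, a pooled SD of 0.96 on the log2 scale, was also wide beside a median of 0.25 over the 10970 genes with a mean of at least 50.

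**Figure D2:**
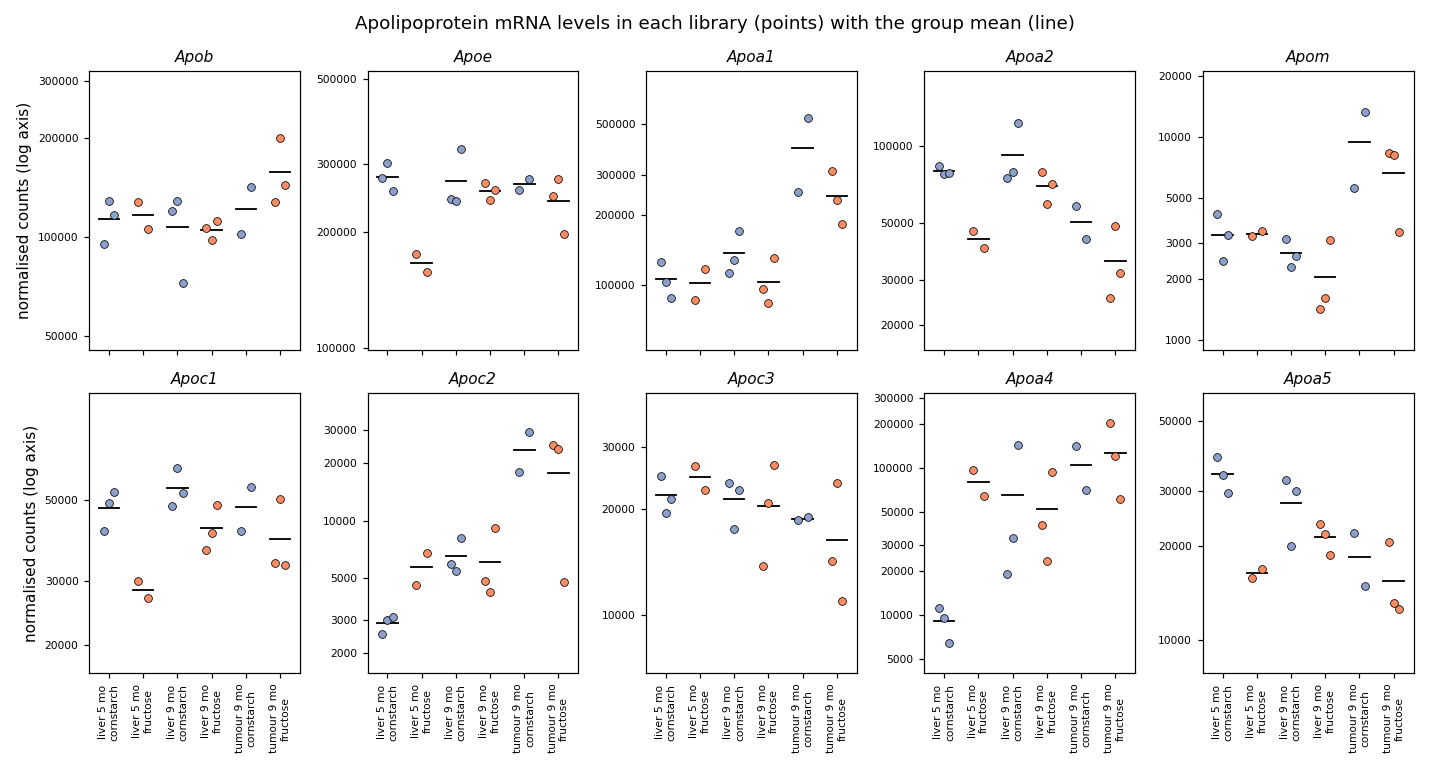
Normalised counts (vertical axes, log scale, one range per panel) of each apolipoprotein gene in every library (points; blue, cornstarch; orange, fructose) of the 6 groups, with the group mean as a line. Apoa4 is lowest in the cornstarch livers of 5 months (6422 to 11149), while Apoa1 and Apom are higher in every tumour than in any liver of 9 months.

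Between the diets, 2 of the 10 mRNAs differed in liver at 5 months: Apoa4 was higher and Apoa5 lower on fructose (limma, adjusted p under 0.05 over all genes tested; 14.8% of 14317 genes passed, 10.3% higher and 4.48% lower). The values of 6 members did not overlap between the diets at that age, higher for Apoa4 and Apoc2 and lower for Apoa2, Apoa5, Apoc1 and Apoe, where 51.8% of all genes did not overlap (27.1% higher, 24.7% lower). Averaged over both ages, Apoa2, Apoa5 and Apoc1 passed as lower on fructose, 3 of 10 members, against 21.4% of genes in either direction and 7.61% lower. No member passed for diet at 9 months (2.54% of genes passed) or for diet in tumours (0.0% passed), and none at an unadjusted p under 0.05 in either. In both, the values of every member overlapped between the diets, where 23.6% and 23.4% of all genes did not. Tumours differed from liver of the same age in 4 members, Apoa1, Apoc2 and Apom higher and Apoa2 lower, where 23.8% of 14503 genes passed (13.4% higher, 10.5% lower). In 3 of these, all but Apoc2, no tumour overlapped a liver (13.0% of all genes; 7.96% higher, 5.02% lower).

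The median size of the difference over the 10 members was 0.74 on the log2 scale for diet at 5 months and 0.73 for tumour against liver, beside 0.35 and 0.33 over all genes tested. At 9 months it was 0.25 for diet, beside 0.26 over all genes. With sign, the members' median was -0.0036 for diet at 5 months and 0.16 for tumour against liver, beside -0.01 and -0.0055 over all genes. For diet at 9 months it was -0.25, with 9 of the 10 members negative, beside -0.018 over all genes (48.1% positive). For diet in tumours it was -0.29, with 8 negative, beside -0.026 (46.9% positive). The lean of the members as a set was not tested. The diet differences at 9 months ran from -0.47 for Apom to 0.02 for Apob, with 95% intervals of -1.09 to 0.16 and -0.67 to 0.71. In tumours they ran from -0.71 for Apoc2 to 0.36 for Apob, with wider intervals (-2.13 to 0.72 and -0.72 to 1.45). Liver of 9 months against 5 months gave no call among the members (2.77% of genes passed) and no member without overlap (1.6% of genes), although Apoc2, Apom and Apoc1 had an unadjusted p under 0.05, with log2 differences of 0.60, -0.54 and 0.36. edgeR called 0 members in that comparison and DESeq2 2. The change of the diet difference with age, tested as an interaction, passed in no member (0.698% of genes), with an unadjusted p under 0.05 for Apoa4 and Apoc2. Its change between tumour and liver passed in none either (0.0%; none at an unadjusted p under 0.05). edgeR and DESeq2 called 0 members in both interactions, for diet at 9 months and for diet in tumours.

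**Figure D3:**
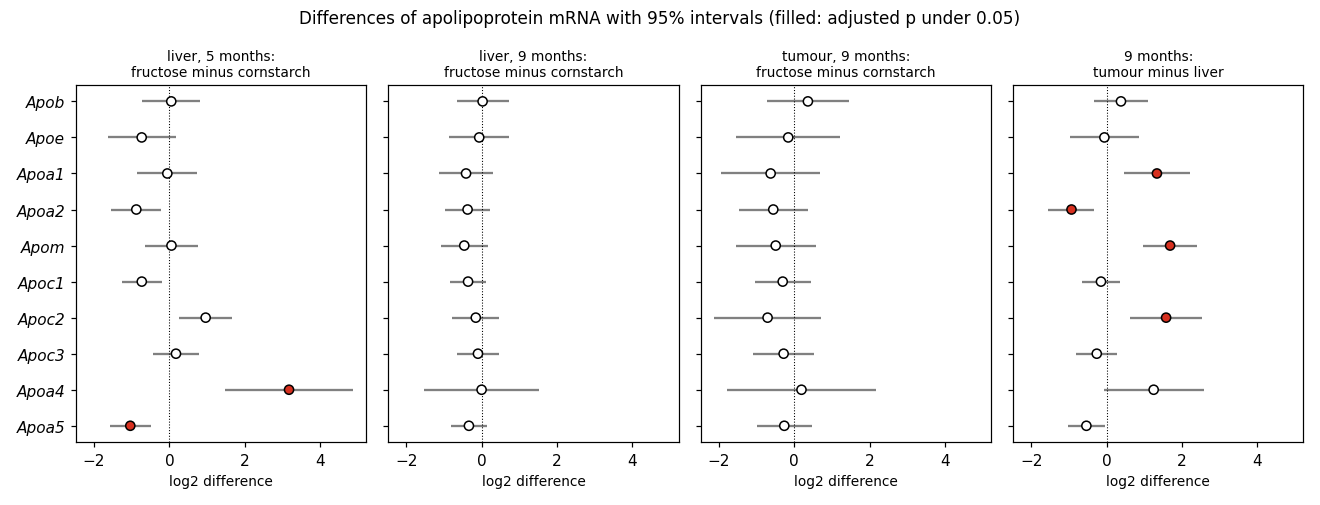
Log2 differences (horizontal axis, circles) with 95% intervals (lines) for the 10 genes in 4 comparisons from limma; filled circles have an adjusted p under 0.05. Apoa4 stands farthest to the right at 5 months (3.18), and Apom, Apoc2 and Apoa1 are to the right of 0 and Apoa2 to the left in tumours.

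Among the proteins of high density lipoprotein, Apoa1 and Apoa2 moved apart in tumours. Apoa1 was at 252546 and 531701 normalised counts in the cornstarch tumours and at 312233, 234238 and 183721 in the fructose tumours. Livers of 9 months held 112550, 128410 and 170191 on cornstarch and 95481, 82824 and 130395 on fructose. Every tumour was above every liver of that age, and cornstarch tumour replicate 2 was far above the other tumours. The difference was 1.34 on the log2 scale (SE 0.40), 2.53-fold, with an adjusted p of 0.0346 in limma. Without that tumour it was 1.07 with an adjusted p of 0.143. The call stood without cornstarch liver replicate 3, fructose tumour replicate 3 or cornstarch tumour replicate 1, and was lost in the other 8 fits that left out 1 library (adjusted p 0.0515 to 0.143) and without a filter on low values (0.214).

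Apoa2, the second protein of high density lipoprotein, was at 58281 and 43192 in cornstarch tumours and 25535, 48795 and 31982 in fructose tumours, against 74964, 78959 and 122841 in cornstarch livers and 79187, 59199 and 70769 in fructose livers of 9 months. The highest tumour lay just under the lowest liver. Apoa2 was 1.91-fold lower in tumours (log2 difference -0.93, SE 0.28, adjusted p = 0.0336), and the call was lost in 7 of the 11 fits that left out 1 library, most clearly without cornstarch tumour replicate 2 (adjusted p 0.0525 to 0.144). It stood without cornstarch liver replicate 1, fructose tumour replicates 2 or 3, or cornstarch tumour replicate 1, and was lost without a filter (0.121) and after quantile normalisation (-0.66, adjusted p = 0.0835).

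Apoa2 was also low in fructose liver of 5 months, at 46777 and 40092 against 83243, 77562 and 78281 on cornstarch. The groups did not overlap, but the log2 difference of -0.88 (SE 0.30) had an adjusted p of 0.0743 in limma and 0.00183 in DESeq2. Over both ages it was -0.63 (SE 0.20, adjusted p = 0.0474), a call that was lost in 10 of the 11 fits that left out 1 liver (adjusted p 0.0505 to 0.149), all but that without cornstarch replicate 1 of 9 months. It was also lost without a filter (0.164), in one fit of all 16 libraries (0.0847) and without the libraries with Xist (0.105). Apoa1 showed no such step at 5 months: fructose livers were at 86070 and 116482, and cornstarch livers at 87222 to 125896.

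Apom, the carrier of sphingosine-1-phosphate, had the lowest adjusted p of the 10 in tumours against liver. It was at 5587 and 13212 in cornstarch tumours and 8284, 8141 and 3394 in fructose tumours, and at 3130, 2282 and 2588 in cornstarch livers and 1420, 1599 and 3092 in fructose livers. All tumours were above all livers of 9 months, the lowest tumour, fructose replicate 3, by little. The difference was 1.69 (SE 0.32), 3.22-fold, adjusted p = 0.00492, and it passed whichever of the 11 libraries was left out (adjusted p at most 0.0317). At 5 months Apom was at 3245 and 3421 on fructose and at 2432 to 4145 on cornstarch, with the fructose values inside the cornstarch range.

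Apoc2, the cofactor of lipoprotein lipase, was higher in tumours. It was at 18092 and 29279 in cornstarch tumours and at 24889, 23918 and 4722 in fructose tumours, against 4221 to 9112 in the 6 livers of 9 months. Of the 5 tumours 4 were above every liver, while fructose tumour replicate 3 lay within the liver range. Apoc2 was 2.99-fold higher in tumours (log2 difference 1.58, SE 0.43, adjusted p = 0.0241). Without fructose tumour replicate 3 the difference was 1.98 with an adjusted p of 0.000810, and without cornstarch tumour replicate 2 it was 1.41 with an adjusted p of 0.114. The call was also lost without fructose liver replicate 1 or 2 or cornstarch liver replicate 2 (adjusted p 0.0521, 0.0574 and 0.0542).

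In liver of 5 months Apoc2 was at 4594 and 6731 on fructose and at 2510, 2996 and 3093 on cornstarch. The diets did not overlap, and the log2 difference of 0.96 (SE 0.31) had an adjusted p of 0.0656 in limma and 0.0216 in DESeq2. Cornstarch livers of 5 months held the lowest Apoc2 of the series. Their level was also below the 5409 to 8117 of cornstarch livers of 9 months, a comparison across age within one diet for which no test was made.

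Apoa5, which promotes triglyceride clearance, went the other way from Apoc2. At 5 months it was at 15850 and 16886 on fructose and at 38279, 33539 and 29589 on cornstarch. The groups lay far apart with little spread within each. Apoa5 was 2.05-fold lower on fructose (log2 difference -1.04, SE 0.24, adjusted p = 0.0179). Without the 2 libraries with Xist, which leaves 1 fructose library, it was -0.90 with an adjusted p of 0.148. The call was also lost without either fructose library (adjusted p 0.0898 and 0.107) or cornstarch replicate 2 (0.0543).

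Livers of 9 months held 32544, 19966 and 29975 of Apoa5 on cornstarch and 23509, 21770 and 18690 on fructose, which overlapped. Over both ages Apoa5 was 1.61-fold lower on fructose (-0.69, SE 0.16, adjusted p = 0.0142), the single diet call among the members that held in all 11 fits leaving out 1 liver (adjusted p at most 0.0489). It did not hold without both libraries with Xist (-0.62, adjusted p = 0.0738). In tumours Apoa5 was at 12598 to 21975, against 18690 to 32544 in liver, an overlap with a log2 difference of -0.53 (SE 0.22, adjusted p = 0.102 in limma and 0.0380 in DESeq2). Apoc3, an inhibitor of lipolysis that lies between Apoa1 and Apoa4, did not pass in any comparison: it ranged from 10954 to 26630 and its groups overlapped throughout.

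Apoa4 had the largest diet difference. In liver of 5 months it was at 97574 and 64768 on fructose and at 11149, 9521 and 6422 on cornstarch, so the lower fructose library was well above all of cornstarch. The difference was 3.18 on the log2 scale (SE 0.77), 9.03-fold, with an adjusted p of 0.0204. Without the 2 libraries with Xist it was 3.05 with an adjusted p of 0.128. Leaving out either fructose library (2.88 and 3.47, adjusted p 0.111 and 0.0997) or cornstarch replicate 2 or 3 (3.23 and 2.95, adjusted p 0.0544 and 0.0661) also ended the call, with the direction kept.

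At 9 months the picture differed. Apoa4 was at 18974, 33195 and 144563 in cornstarch livers and at 40939, 23319 and 94314 in fructose livers, and 1 library of each diet was high. The log2 difference was -0.01 (SE 0.69). Its sign turned with the library left out, and without cornstarch replicate 3 it was 0.84 with an adjusted p of 0.473. That library also showed a low Xist signal (226) beside the lowest Y-linked signal of the 14 libraries that had it (1593). All 6 values were above the cornstarch livers of 5 months. The diet difference fell by 3.18 between 5 and 9 months (SE 1.03), with an adjusted p of 0.250, so a change with age was not shown. Over both ages the diet difference was 1.58 (SE 0.52, adjusted p = 0.0514), and without cornstarch replicate 3 of 9 months it was 2.01 with an adjusted p of 0.00699.

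In tumours Apoa4 was at 141477 and 70601 on cornstarch and at 202649, 120363 and 61286 on fructose. These values were high, yet they overlapped livers of 9 months at both diets. The tumour difference of 1.25 (SE 0.60) had an adjusted p of 0.154, and without cornstarch liver replicate 3 it was 1.67 with an adjusted p of 0.0422. Gm10680, on the strand opposite Apoa4, was listed at 21.0, 0 and 0 in cornstarch livers and at 147 and 105 in fructose livers of 5 months, and reached 742 in the cornstarch liver of 9 months that was highest for Apoa4. Markers of intestinal epithelium, the other main source of Apoa4, gave no call at 5 months in the 2 of 6 that could be tested. Nearly all of their signal was Fabp2, a fatty acid-binding protein, at 583 and 375 on fructose and at 509, 1152 and 1036 on cornstarch, which overlapped. Sis, Lct, Muc2 and Cdx2 each lay between 0 and 3.99 in all 16 libraries, and Cdx2 was at 0 throughout.

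The genes whose pattern over the 16 libraries was most like that of Apoa4, by the root mean square of the differences of centred log2 values, were Hilpda (0.84), a lipid droplet protein, Dynll1 (0.85), a dynein light chain, and S100a11 (0.88), a calcium-binding protein. Hilpda averaged 29.8 ± 5.18 (SD, n = 3) in cornstarch and 98.2 ± 24.1 (SD, n = 2) in fructose livers of 5 months, and 141 ± 55.8 (SD, n = 2) and 176 ± 108 (SD, n = 3) in cornstarch and fructose tumours. S100a11 averaged 82.4 ± 21.1 (SD, n = 3) and 578 ± 158 (SD, n = 2) in the same livers. These genes were picked for closeness to Apoa4 over the same 16 libraries, so their group levels follow from the choice. Their distances were near the pooled SD of Apoa4 between libraries of one group, 0.96, so the likeness is loose.

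Apob, the scaffold, was at 95227 to 129019 in all livers of 5 months, and no comparison of it passed. In livers of 9 months it was at 72440 to 128724, with cornstarch replicate 3 lowest. That library was the highest of those livers for Apoa1, Apoa2, Apoa4 and Apoe. In tumours Apob was at 102028 to 200746. The tumour interval of its log2 difference, -0.34 to 1.11, spans 0.

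Apoe, the ligand of remnant uptake, was at 175139 and 157939 in fructose livers of 5 months and at 275713, 301876 and 255446 in cornstarch livers. The 2 fructose values were the lowest of all 16 libraries. Its log2 difference of -0.74 (SE 0.41) had an adjusted p of 0.259 in limma, 0.000247 in DESeq2 and 0.0727 in edgeR. After quantile normalisation the difference was -1.35 with an adjusted p of 0.0387 in limma. The SD of the log2 values was 0.12 in these cornstarch livers and 0.11 in the fructose livers. At an unchanged difference of -0.74, the limma SE was 0.27 with a minimum of 50 in 3 libraries and 0.71 without a filter. The SE thus depended on the set of genes fitted, not only on the spread of Apoe. At 9 months Apoe was at 240968 to 327669 in liver and 197908 to 275283 in tumours.

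Apoc1, a small inhibitor of particle clearance next to Apoe, was at 29881 and 26869 on fructose and at 40958, 48809 and 52352 on cornstarch at 5 months. The groups did not overlap, and the log2 difference of -0.73 (SE 0.24) had an adjusted p of 0.0634 in limma and 0.000845 in DESeq2. At 9 months cornstarch livers held 47886, 60919 and 52108 and fructose livers 36368, 40599 and 48243, an overlap of 1 fructose library. Over both ages Apoc1 was 1.46-fold lower on fructose (-0.55, SE 0.16, adjusted p = 0.0326). That call was lost in 7 of the 11 fits that left out 1 liver (adjusted p 0.0616 to 0.116), and stood without fructose replicate 3 or cornstarch replicates 1 or 3 of 9 months or cornstarch replicate 1 of 5 months. It was also lost without a filter (0.114), in one fit of all 16 libraries (0.0660) and without the libraries with Xist (0.0587). Tumours, at 33033 to 54119, overlapped the livers of 9 months.

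Ratios between members cancel the scaling of a library and restate the values above within each library. Each pair shown joins a member that was higher with one that was lower in the same comparison. Their separation therefore follows from those values and is no added support. Ratios of Apoa4 to Apoa1, Apom to Apoa2 and Apoc3 to Apoa5 were also computed and are not shown. Per kb of exon, Apoa4 stood at 0.302 to 0.405 of its neighbour Apoa5 in cornstarch livers of 5 months and at 5.33 and 8.55 times it in fructose livers. The ratio was 0.810 to 7.01 in livers of 9 months and 6.61 to 13.7 in tumours. The cornstarch livers of 5 months were thus the single group in which Apoa5 exceeded Apoa4 in every library.

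Apoc2 stood at 0.0541 to 0.0562 of Apoc1, its neighbour on chromosome 7, in cornstarch livers of 5 months and at 0.141 and 0.229 in fructose livers. In tumours it reached 0.402 to 0.677 of Apoc1 but for fructose replicate 3, at 0.131. Apoa1 stood at 0.484 to 0.801 of Apoa2 in cornstarch livers of 5 months and all livers of 9 months, and at 0.799 and 1.26 in fructose livers of 5 months. In the 5 tumours Apoa1 was 1.88 to 5.35 times Apoa2, with no overlap with any liver. The ratios are descriptions and carry no test.

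**Figure D4:**
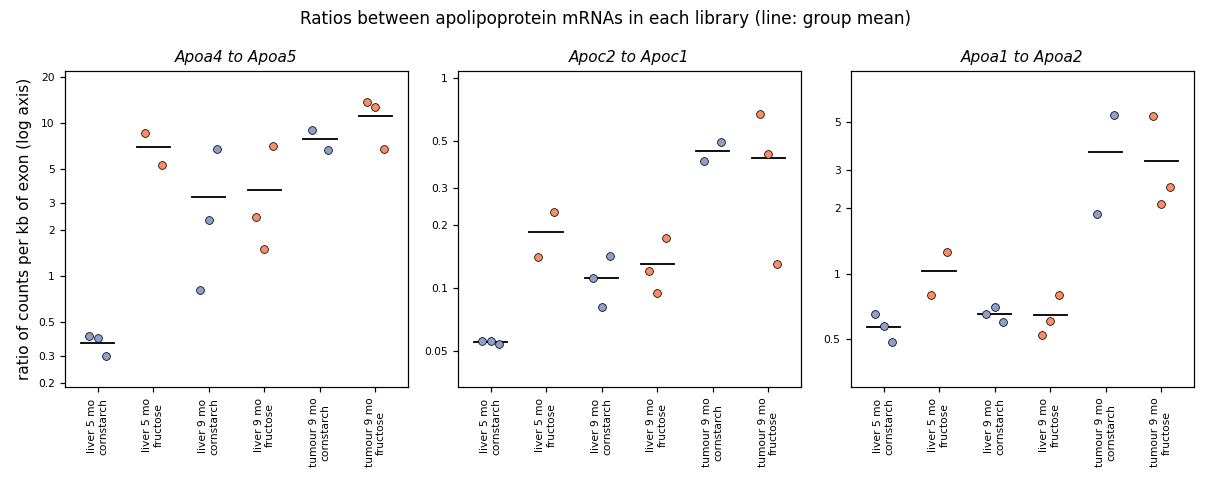
Ratio of normalised counts per kb of exon (vertical axes, log scale) of Apoa4 to Apoa5, Apoc2 to Apoc1 and Apoa1 to Apoa2 in each library (points; blue, cornstarch; orange, fructose), with the group mean as a line. The Apoa4 ratio separates the diets at 5 months (0.302 to 0.405 against 5.33 and 8.55), and the Apoa1 ratio separates the 5 tumours (1.88 to 5.35) from all livers.

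Other genes of lipoprotein handling were read from 6 lists. Their median log2 differences for diet at 5 months ran from -0.36 (further apolipoproteins) to 0.42 (genes that handle high density lipoprotein), beside -0.01 over all genes. In liver of 5 months, of 8 tested genes that handle high density lipoprotein, 2 were lower on fructose and none higher: Lipc, hepatic lipase, 2.10-fold (adjusted p = 0.00904) and Pon1, paraoxonase, 2.40-fold (0.0352). Of 6 lipolysis genes, Lpl, lipoprotein lipase itself, was 2.86-fold higher (0.0493) and Angptl8, an inhibitor of it, 2.21-fold lower (0.0418). Of 11 genes of particle assembly and secretion, Sort1, a sorting receptor for Apob, was 2.34-fold higher (0.00723), and Mia2 and Sar1b, which load large cargo at the endoplasmic reticulum, were 1.58-fold and 1.63-fold lower (0.0214 and 0.0428).

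Of 8 receptor and uptake genes 1 was higher at 5 months, Lsr, 1.74-fold (adjusted p = 0.0412). Of 8 further apolipoproteins tested, Apon was 2.10-fold higher (0.0103) and Apol7a 2.36-fold lower (0.00836). Creb3l3, a liver transcription factor known to act on Apoa4, Apoa5 and Apoc2, was at 6747 and 6051 on fructose and at 5989, 6782 and 6131 on cornstarch, which overlapped. At 9 months 1 gene of all 6 lists passed for diet, Abcg1, a cholesterol exporter, 3.71-fold higher (0.0288), and in tumours none did.

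Between tumour and liver, 6 of 16 regulators were lower and none higher, among them Nr1h4, the bile acid receptor (1.96-fold), Ppargc1a, a coactivator (1.88-fold), and Nr0b2, a corepressor (1.78-fold). The median log2 difference of the list was -0.22, beside -0.0055 over all genes. Of 8 genes of high density lipoprotein, Scarb1, its receptor, was 1.66-fold higher, while Lcat, which esterifies its cholesterol, Lipc and Pon1 were 1.75-fold, 2.65-fold and 3.29-fold lower (list median -0.75). Of 11 assembly genes 5 were higher and 1 lower, with Surf4, a cargo receptor, 1.40-fold and Sort1 2.38-fold higher (list median 0.49). Of 8 uptake genes 3 were higher and none lower. Of 8 further apolipoproteins 4 were lower (Apol7a, Apol9a, Apol9b and Apon, 1.96-fold to 2.50-fold) and none higher (list median -0.70). Of the 10 members 3 were higher and 1 lower, where 13.4% of all genes were higher and 10.5% lower. Of the lipolysis genes, Lpl was 2.39-fold and Angptl8 1.82-fold higher.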

How the data were processed

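Messenger RNA libraries (TruSeq mRNA kit, per the labels' protocols) were processed by the authors with FastQC, Trim Galore, STAR, RSEM and DESeq2 on GRCm38, per the submitters' processing notes; their versions are not stated there. The deposited signal values are normalised counts per gene: 100% of the values above 0 were whole multiples of 1 step per library (tolerance 0.01 reads), so whole reads were recovered.

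Members and lists were chosen with earlier results of these data known. All 10 members are named. Of the lists, genes that passed without overlap of the groups were named, at most 4 per list and comparison. Creb3l3 and, in tumours, Sort1, Pon1, Lpl, Angptl8 and the regulators were named after their values were seen. Some genes of the lists are not reported here. Replicates were numbered in accession order.

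log2(value + 1) was fitted with limma 3.58.1 (R 4.3.3, trend, 1 mean per group; values of at least 10 in at least 2 libraries; Benjamini-Hochberg over all genes, threshold 0.05) on the 11 liver libraries or the 11 libraries of 9 months, and the code was tested on simulated data. Alternatives were other pseudocounts, filters and scalings, array weights, other sets of libraries, and edgeR 4.0.16 and DESeq2 1.42.0 on the recovered reads, which called 2056 and 2555 genes for diet at 5 months, where limma called 2119, and 3444 and 4219 for tumour against liver, where limma called 3458. A fold change is 2 to the power of that log2 difference, which understates changes of low genes. With the trend, limma draws the spread of a gene toward that of genes at a similar level. A change of filter can thus move the SE and adjusted p of a member at an unchanged difference.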

Additional observations from a re-analysis of the deposited data

How the results depend on the processing

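Each comparison was repeated under 13 other settings and with each of 11 libraries left out. The number of all genes called moved as well, so the counts of members below cannot be read as a trait of the members. For diet at 5 months it was 2119 as designed and 1526, from a smaller set, with a minimum of 50 in 3 libraries. It was 2297 after quantile normalisation, 2056 with edgeR, 2555 with DESeq2 and 3625 with array weights. Over both ages it was 3059, against 2855 without a filter and 2582 in one fit. For diet at 5 months 2 members passed, against 4 with a minimum of 50 in 3 libraries, 6 after quantile normalisation, 4 with edgeR, 6 with DESeq2, 5 with array weights, 0 without the libraries with Xist, and 0 to 3 when 1 library was left out. Over both ages 3 passed, against 1 without a filter, 1 in one fit of 16 libraries, 0 without the libraries with Xist, and 1 to 3 when 1 was left out. For tumour against liver 4 passed, against 2 without a filter and 1 to 4 when 1 was left out. For 9 against 5 months 0 passed, against 1 after quantile normalisation and 2 with DESeq2. The difference of Apoa4 turned for diet at 9 months with TMM (0.012), quantile normalisation (0.24), array weights (0.46) and when 1 library was left out (-0.63 to 0.84), for diet in tumours when 1 was left out (-0.31 to 0.70), and for the diet difference between tumour and liver with array weights (-0.24) and when 1 was left out (-0.64 to 0.82). The cause was not tested. Quantile normalisation moved the median of all genes by -0.13 for diet at 5 months, and the genes called, 1478 higher and 641 lower, became 1226 and 1071, with TMM 1296 and 883 and with upper quartile scaling 1324 and 938. Over both ages 1970 and 1089 became 1590 and 1687 after quantile normalisation. DESeq2 called 962 genes for diet at 9 months, where limma called 363, 107 for diet in tumours, where limma called 0 (1178 at an unadjusted p under 0.05), and 1081 for age, where limma called 397. No paired analysis was possible because the labels carry no replicate numbers. Groups of 2 or 3 libraries limit what can be seen: a fit without 1 fructose library of 5 months assumes that the other varies like the remaining groups.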
